A study of Mus musculus with 123 samples.

Results

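The loci described here are 8 windows of the mouse genome placed around Klf4, Klf2, Klf5, Esrrb, Prdm14, Tbx3, Tfcp2l1 and Zfp42, genes that mouse embryonic stem cells express in the naive state. A peak was a member when it shared at least 1 bp with a window, and windows were given in mm9 coordinates and ran from 30 kb (Klf2) to 190 kb (Esrrb). In all, 93 of the 60226 peaks in 3 deposited peak lists were members, or 0.154%, with 36 in the list ES1, 29 in ES2 and 28 in ES3. The windows together span 630 kb. No gene annotation of mm9 was used here, so a window is called by its gene without saying which exon, intron or promoter a peak covers, and whether a peak belongs to the named gene or to a neighbour was not determined.

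The series measured H3 lysine 4 methylation by droplet chromatin immunoprecipitation sequencing. Single cells are enclosed in drops, where micrococcal nuclease cuts their chromatin and a DNA barcode is joined to it, and the antibody is applied to the pooled material. It holds 123 libraries, 86 for H3K4me2 and 37 for H3K4me3, made from V6.5 mouse embryonic stem cells (mESC) grown in serum with leukaemia inhibitory factor (LIF), from purchased mouse embryonic fibroblasts (MEF) and from EML cells, a blood progenitor line. The groups of libraries were H3K4me2 in mESC alone (59), in pools of mESC and MEF (24) and in MEF alone (3), and, for H3K4me3, pools of mESC and MEF (19), a mix of mESC and MEF (10), pools of mESC and EML (4) and pools of EML and MEF (4). The lists ES1, ES2 and ES3 belong to the series as a whole, are read here as sets of embryonic stem cells from their names alone, and could not be tied to libraries, cells or a mark. Each name has a single list, so there were no replicates, no difference between lists was tested, and the intervals given are exact and cover counting error only. How cells were assigned to a list is unknown, and an assignment made from the same profiles would itself set part of any difference between lists.

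The naive state of pluripotency is held in culture by LIF acting through STAT3 and by a network of transcription factors that sustain one another. Klf4 and Tfcp2l1 are induced through STAT3, Tbx3 responds to PI3-kinase signalling, Esrrb lies downstream of the Wnt effector Tcf3, and these factors help to keep Nanog, Sox2 and Pou5f1 on. H3K4me3 marks active and poised promoters and H3K4me2 marks promoters and enhancers, and broad stretches of the mark are known at genes that define a cell type. Several of the 8 genes are known for uneven expression from cell to cell in serum and LIF, Zfp42 (Rex1) above all.

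Promoter sequences were taken from RefSeq for the GRCm38.p6 build. They are shown for 3 loci, Klf4 with few ES3 peaks, Esrrb with the widest peaks, and Zfp42 with no ES3 peak. Each run is the 250 bases before an annotated start, 5′ to 3′ in the direction of the gene. Capitals, of which the Klf4 run has none, mark the letters CCACCC, the core of the CACC box bound by KLF factors, and ATTTGCAT, the octamer bound by Oct4, on either strand, so that GGGTGG is a CACC box on the other strand. GRCm38.p6 is not the build of the peaks, and whether a peak covers these bases was not determined here. The Klf4 sequence lies at chr4:55532476-55532725, minus strand, the first Esrrb sequence at chr12:86360867-86361116, plus strand, the second at chr12:86421394-86421643, plus strand, and the Zfp42 sequence at chr8:43307010-43307259, minus strand.
Klf4: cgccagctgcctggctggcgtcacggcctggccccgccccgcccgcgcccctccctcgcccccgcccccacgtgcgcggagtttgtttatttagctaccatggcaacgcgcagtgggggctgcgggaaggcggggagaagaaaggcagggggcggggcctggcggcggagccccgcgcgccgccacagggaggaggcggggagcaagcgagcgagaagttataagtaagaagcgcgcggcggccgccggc
Esrrb, first start: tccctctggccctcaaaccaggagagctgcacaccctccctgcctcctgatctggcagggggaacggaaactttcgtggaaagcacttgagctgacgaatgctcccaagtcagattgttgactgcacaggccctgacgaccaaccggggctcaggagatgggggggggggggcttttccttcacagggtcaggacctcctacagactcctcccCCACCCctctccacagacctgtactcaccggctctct
Esrrb, second start: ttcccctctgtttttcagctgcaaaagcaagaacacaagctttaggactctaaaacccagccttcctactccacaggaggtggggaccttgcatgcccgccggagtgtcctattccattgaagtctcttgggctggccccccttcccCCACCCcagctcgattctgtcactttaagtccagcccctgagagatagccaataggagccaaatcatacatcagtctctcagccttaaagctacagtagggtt
Zfp42: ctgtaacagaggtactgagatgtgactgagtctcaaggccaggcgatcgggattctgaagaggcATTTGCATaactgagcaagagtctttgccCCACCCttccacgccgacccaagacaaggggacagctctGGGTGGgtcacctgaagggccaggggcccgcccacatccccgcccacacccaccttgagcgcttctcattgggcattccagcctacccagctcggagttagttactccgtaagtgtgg

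The promoters of these genes were of different kinds. Klf4 had 32 CpG dinucleotides in its 250 bases, a number reached by 4.58% of 32851 mouse promoters, and Klf2 had 29, reached by 6.78%. Tfcp2l1 had 16, Zfp42 had 9, and the Esrrb starts had 6 and 3, against a median of 6 over all promoters. The Klf4 and Klf2 starts thus lay in CpG-rich sequence, where H3K4me3 is generally found, and the Esrrb starts did not. CCACCC on either strand was present 2 times at Zfp42, once at each Esrrb start and once at Klf2, and 28.1% of all promoters hold it. ATTTGCAT was present once at Zfp42, and 1.60% of promoters hold it. AAGGTCA, the core site of Esrrb (in 4.08% of promoters), and TTCCNGGAA, the site of STAT factors (in 0.913%), were searched on both strands as well, and these letters were not in the 6 windows searched. RefSeq sequences were matched for 5 of the 8 genes, and none was printed for Klf5, Prdm14 or Tbx3.

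Peaks covered far more of the 8 windows than of the genome in each list. The covered length was 191.5 kb in ES1, 147.8 kb in ES2 and 87.0 kb in ES3. Inside the windows this was 29.3% of the bases in ES1, 23.5% in ES2 and 13.8% in ES3, against 2.43%, 1.77% and 0.865% of the whole genome, or 12.1, 13.2 and 16.0 times the genome's share. The windows were drawn around genes that mouse embryonic stem cells express in the naive state, so a high share was built into the choice, and it was not tested. Expression in the cells behind the lists was not measured here. With the windows widened by 20 kb on both sides the shares were 23.5%, 18.4% and 10.3%. The whole lists held 26292, 21543 and 12391 peaks over 2441443, 2717742 and 2439853 reads, as recovered from the authors' scores.

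The member peaks were wide. Their median width was 2392 bp for the ES1 members, 3079 bp for those of ES2 and 2056 bp for those of ES3, against 1684, 1660 and 1517 bp over the whole lists. Peaks of at least 5 kb numbered 11 of 36 in ES1 (30.6%, 95% interval 16.3 to 48.1), 8 of 29 in ES2 (27.6%, 12.7 to 47.2) and 4 of 28 in ES3 (14.3%, 4.03 to 32.7). Over the whole lists such peaks were 9.95%, 6.96% and 3.59%, each below the interval of its members. Peaks that belong to 1 locus are neighbours and not independent draws, which the intervals do not reflect. Member peaks of ES1 held 1318 reads (1248 to 1391), those of ES2 1244 (1176 to 1315) and those of ES3 533 (489 to 580). Reads were counted only in the inner interval that the authors give for each peak, which was the whole peak for 21 of the 36 ES1, 15 of the 29 ES2 and 17 of the 28 ES3 members, and which could be a small part of the widest ones.

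**Figure D1:**
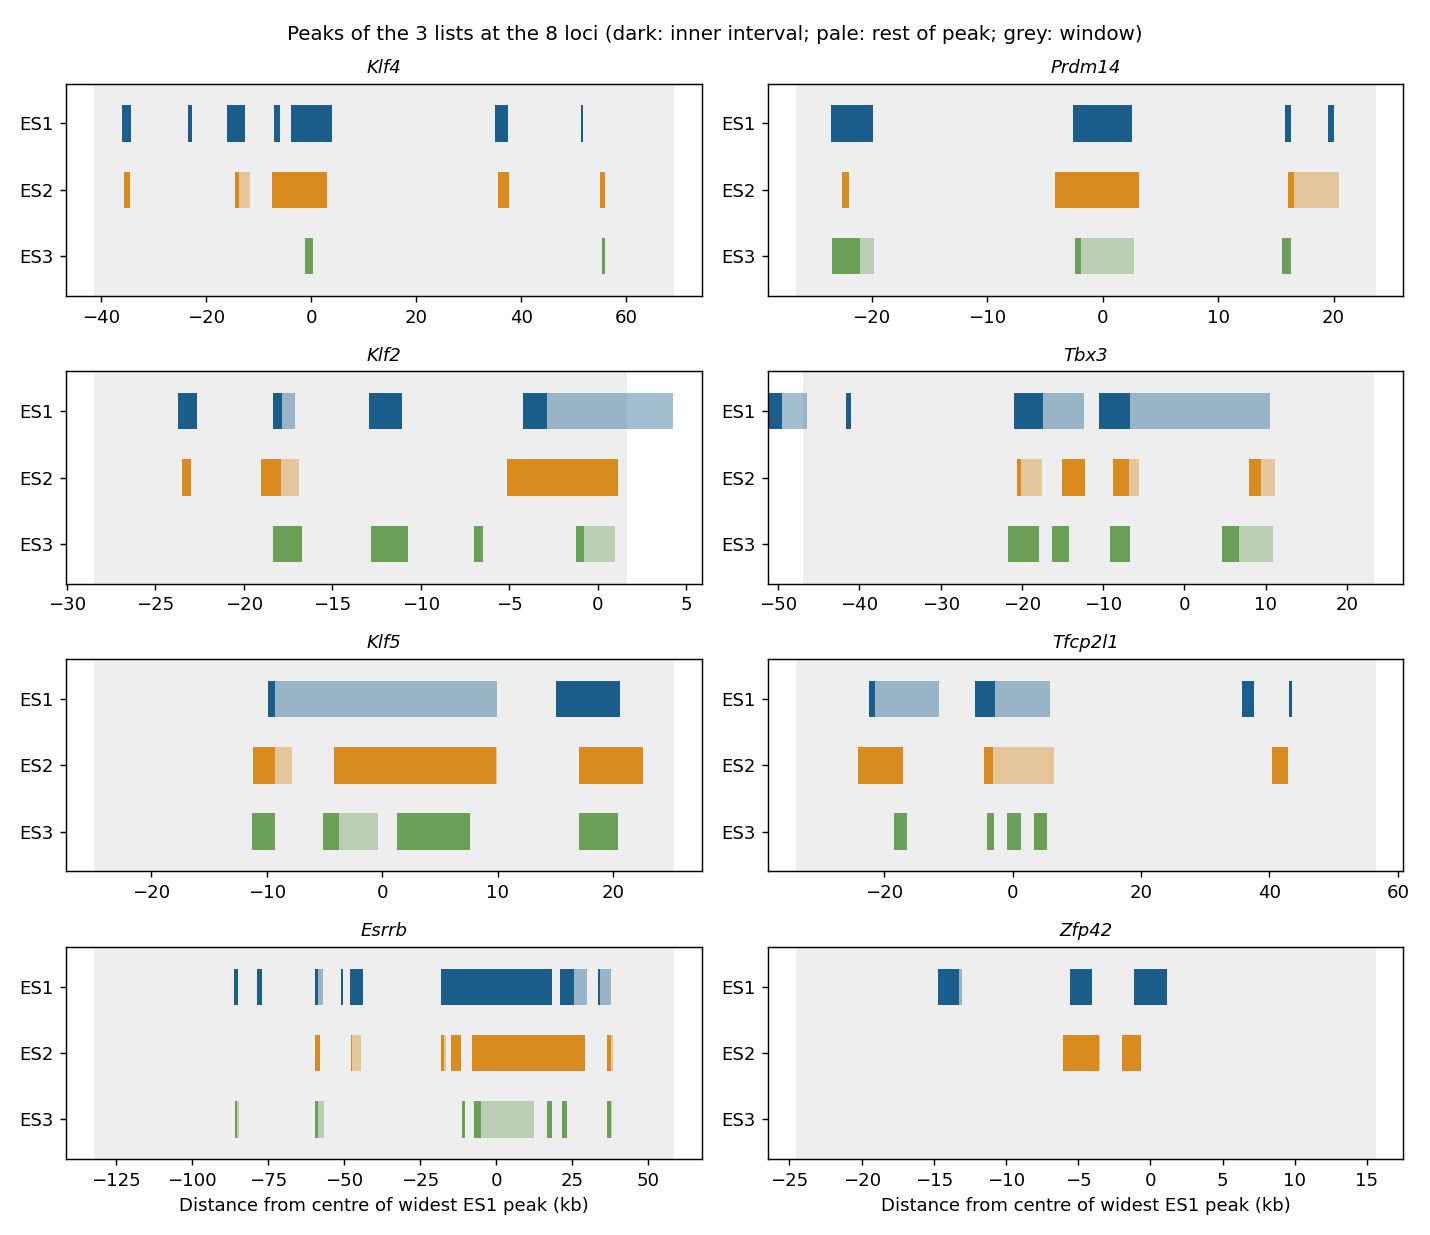
Peaks of ES1, ES2 and ES3 at the 8 loci, 1 panel a locus, against the distance in kb from the centre of the widest ES1 peak; dark bars are the authors' inner intervals, pale bars the rest of each peak, and grey shading the window. At Klf4 ES3 has 2 peaks where ES1 has 7, Esrrb holds a block of up to 37.0 kb, and Zfp42 has no ES3 peak.

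Among the KLF factors, Klf4 showed the largest difference between the lists of the 7 loci with peaks in every list. Klf4, a zinc finger factor used in reprogramming to pluripotency, had 7 peaks over 18.1 kb in ES1, 5 over 17.8 kb in ES2 and 2 over 2.07 kb in ES3. ES1 and ES2 covered nearly the same length, and ES1 covered 8.73 times and ES2 8.60 times the length of ES3. The ES1 peaks held 207 reads (180 to 237), the ES2 peaks 182 (157 to 210) and the ES3 peaks 28 (18.6 to 40.5). The largest of its regions, chr4:55483732-55494986, was 11255 bp wide when the 3 lists were merged, and held 97 ES1 reads, 114 ES2 reads and 18 ES3 reads. In ES3 a peak of 1569 bp lay inside it, so that a broad block in ES1 and ES2 stood against a narrow peak in ES3.

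Inside called peaks of the largest Klf4 region ES3 had fewer bases than ES1 and ES2, at a like density. Density was measured only inside called peaks, so that of the whole block was not compared. At the 11255-bp region the density in inner intervals, here all of each peak, came to 10.8 reads per kb for ES1, 10.9 for ES2 and 11.5 for ES3. Reads outside called peaks are not in the lists, so whether ES3 had fewer reads over the rest of the block was not measured. The other ES3 peak at Klf4, chr4:55546563-55547063, overlapped an ES2 peak and no ES1 peak, with 10 reads in ES3 (4.80 to 18.4) and 16 in ES2 (9.15 to 26.0). Of the 7 merged regions at Klf4, 1 was in all lists, 3 were in ES1 and ES2, 2 were in ES1 alone and this 1 was in ES2 and ES3. The 3 regions of ES1 and ES2 held 45, 24 and 19 reads in ES1 and 12, 27 and 13 in ES2. In the first of these the ES1 reads came from 3485 bp and the ES2 reads from 912 bp of a 2883-bp peak. Per kb they were 12.9 in ES1 and 13.2 in ES2.

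Such a gap was not rare in the genome. In 3787 consecutive 100-kb stretches with at least 5 kb of ES1 peaks, 17.7% had an ES3 peak and at least 5 times as much ES1 as ES3 length, as at Klf4. The stretches were chosen after the data were seen and only approximate the windows, which have several lengths. Klf4 was the only 1 of the 8 loci in that class.

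Klf2 and Klf5, which share targets with Klf4 and can replace it in part, differed less between the lists in covered length. Klf2 had 4 peaks over 12.7 kb in ES1, 3 over 8.94 kb in ES2 and 4 over 6.41 kb in ES3. Klf5 had 2 peaks over 25.3 kb in ES1, 3 over 23.2 kb in ES2 and 4 over 16.5 kb in ES3. ES1 covered 1.99 times the ES3 length at Klf2 and 1.54 times at Klf5, both below the 2.80 times of the whole lists. The Klf2 ratio rests on 1 wide ES1 peak at the window's end and was 0.661 without it.

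Klf5 carried one of the widest regions in the set. Its region chr14:99693572-99714781 was 21210 bp wide, at rank 82 of 31580 merged regions of the genome. A single ES1 peak of 19817 bp lay there, beside 2 ES2 peaks over 17560 bp and 3 ES3 peaks over 13075 bp, so the block was broken into more pieces from ES1 to ES3. Its reads cannot be compared between lists, because they were 15 in 633 bp of inner interval in ES1, against 142 in 16030 bp in ES2 and 87 in 9671 bp in ES3. The other Klf5 region, chr14:99719888-99727436, had inner intervals that were the whole peak and held 50 ES1 reads (37.1 to 65.9), 50 ES2 reads (37.1 to 65.9) and 27 ES3 reads (17.8 to 39.3). Per kb these were 9.08, 8.94 and 7.99 reads, close in the 3 lists.

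At Klf2 the widest region, chr8:74853294-74862642, was 9349 bp wide and was in all lists, as an ES1 peak of 8497 bp, an ES2 peak of 6265 bp and an ES3 peak of 2206 bp. The ES1 peak ran past the end of the window and decides the order at this locus. Inside the window alone peaks covered 33.6% of the bases in ES1, 29.8% in ES2 and 21.4% in ES3. Without this peak ES1 covered 4.23 kb at Klf2, 0.473 times the ES2 and 0.661 times the ES3 length. A second Klf2 region, chr8:74845480-74847672, was in ES1 with 28 reads and in ES3 with 23 reads and was missing from ES2. The 1 region of the 36 called in ES3 alone was also here, chr8:74851431-74851931, with 9 reads (4.12 to 17.1) in 501 bp. That is the smallest number of reads behind any ES3 peak of chromosome 8, so this peak was at the edge of what was called. In RefSeq annotation of the other build Eps15l1 lies close enough to Klf2 that the window may reach it.

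**Figure D2:**
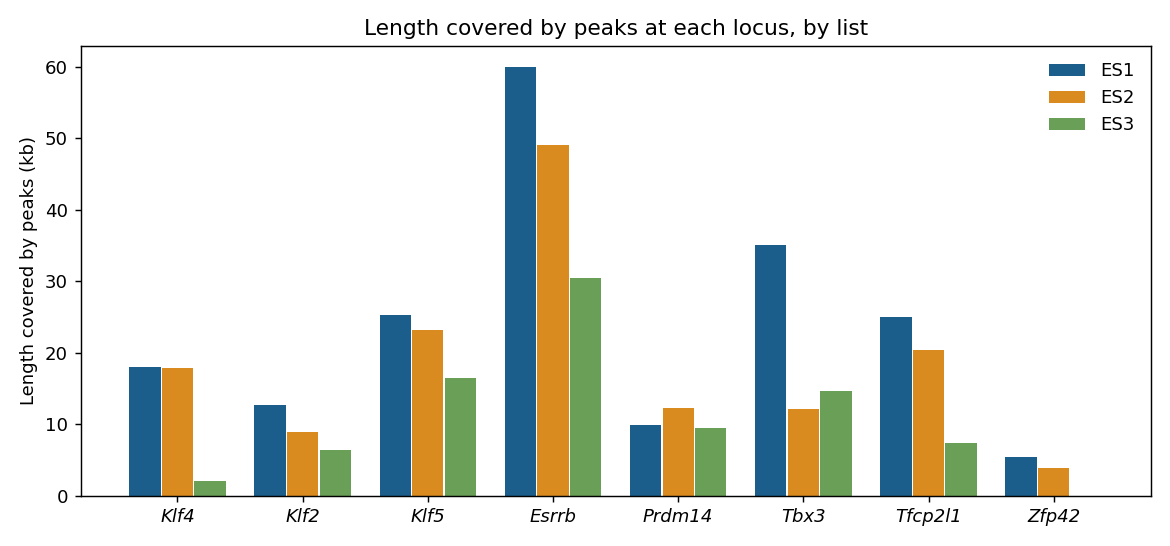
Length in kb covered by peaks of ES1, ES2 and ES3 at each of the 8 loci, 1 bar a list, with no error bar because each list is single. ES1 is highest at all loci except Prdm14, where ES2 has 12.3 kb, and ES3 is above ES2 only at Tbx3.

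Esrrb, an orphan nuclear receptor of the naive network and a partner of Nanog and Oct4, carried the widest peaks of the set. It had 8 peaks over 59.9 kb in ES1, 6 over 49.1 kb in ES2 and 7 over 30.5 kb in ES3. Its widest peak was 36497 bp in ES1 (chr12:87803620-87840116), 37030 bp in ES2 (chr12:87813980-87851009) and 19809 bp in ES3 (chr12:87814586-87834394). These ranked 9th of 26292, 2nd of 21543 and 4th of 12391 peaks by width. The block thus stood near the top of each list by width.

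By number of reads, which grows with width, the same block also ranked near the top of ES1 and ES2. The widest peak held 397 reads in ES1 (359 to 438) and 362 in ES2 (326 to 401), ranks 8 and 6 of their lists, over an inner interval that was the whole peak. Per kb these were 10.9 and 9.78 reads, below the medians of 14.2 and 13.7 over all peaks of these lists. In ES3 the inner interval was 11.8% of the peak and held 28 reads (18.6 to 40.5), so its reads say little of the rest. Merged over the lists the block spanned chr12:87803620-87851902, 48283 bp, the 6th widest of 31580 regions, covered by 2 ES1 peaks, 3 ES2 peaks and 4 ES3 peaks. Density in its inner intervals was 11.0 reads per kb for ES1, 9.79 for ES2 and 9.58 for ES3. The RefSeq gene is 160512 bp long in GRCm38.p6, so the block is shorter than the gene, but its place in the gene was not determined.

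Away from the block, Esrrb had 6 smaller regions of 730 to 4884 bp. Of these, 2 were in all lists, 1 in ES1 and ES2, 1 in ES1 and ES3, and 2 in ES1 alone. Among all ES1-alone regions of the 8 loci the one with the most reads was here, chr12:87743342-87744700, with 21 (13.0 to 32.1). The region of ES1 and ES3, chr12:87735611-87737191, had 11 reads in ES1 and 12 in ES3.

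Tfcp2l1, a grainyhead-family factor downstream of LIF and STAT3, had 4 peaks over 25.1 kb in ES1, 3 over 20.4 kb in ES2 and 4 over 7.39 kb in ES3. ES1 covered 3.39 times and ES2 2.76 times the ES3 length, above the 2.80 and 2.05 times of the whole lists. Most of this lay in a pair of regions, chr1:120519486-120532140 (12655 bp) and chr1:120537760-120550115 (12356 bp), both in all lists. In the second, a single peak of 11720 bp in ES1 and of 11001 bp in ES2 stood against 3 separate peaks of 1197 to 2155 bp in ES3. Inner intervals of 3161, 1368 and 5385 bp held 31 ES1 reads (21.1 to 44.0), 15 ES2 reads (8.40 to 24.7) and 54 ES3 reads (40.6 to 70.5). The counts cover all of the ES3 peaks but small parts of the others, and per kb they were alike, at 9.81, 11.0 and 10.0 reads.

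The other 3 Tfcp2l1 regions were each in a single list. The only region of the 36 in ES2 alone was chr1:120584073-120586453, with 20 reads (12.2 to 30.9), and it ended just before an ES1-alone peak of 500 bp with 8 reads. The remaining ES1-alone region held 15 reads. When peaks within 1 kb were merged, these neighbours became 1 region of ES1 and ES2.

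Tbx3, a T-box factor downstream of PI3-kinase signalling, was the locus where ES2 stood lowest. It had 4 peaks in each list, over 35.1 kb in ES1, 12.2 kb in ES2 and 14.7 kb in ES3. ES1 covered 2.88 times the ES2 length, against 1.37 times over the whole lists, and ES2 covered 0.831 times the ES3 length, against 2.05 times. The ES1 peaks held 155 reads (132 to 181), the ES2 peaks 93 (75.1 to 114) and the ES3 peaks 105 (85.9 to 127), so the intervals of ES2 and ES3 overlapped and that of ES1 did not reach them. Among the 100-kb stretches of the genome, ES3 covered more than ES2 in 9.53%.

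The Tbx3 difference came mainly from 1 region. Region chr5:120116305-120137921 was 21617 bp wide, at rank 78 of 31580, and ES1 covered it with a single peak of 20936 bp. ES2 covered 6275 bp of it with 2 peaks and ES3 8727 bp with 2 peaks, near the ends of the region in both lists. Only 18.3% of the ES1 peak was inner interval, with 60 reads (45.8 to 77.2), against 50 in ES2 (37.1 to 65.9) and 48 in ES3 (35.4 to 63.6). These counts come from different parts of the region and leave out most of the ES1 peak, so the signal of the lists over the whole region cannot be compared. The first ES1 peak, of 4774 bp with 33 reads, crossed the start of the window and overlapped ES2 and ES3 peaks that lay outside it and were not counted. Without it ES1 covered 30.3 kb, 2.49 times the ES2 and 2.07 times the ES3 length, and its 122 reads (101 to 146) had an interval that overlapped those of ES2 and ES3.

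Prdm14, a PR-domain protein that represses DNA methylation and fibroblast growth factor signalling, differed least between ES1 and ES3 in covered length. It had 4 peaks over 9.88 kb in ES1, 3 over 12.3 kb in ES2 and 3 over 9.53 kb in ES3. ES2 covered more than ES1, which was so in 14.4% of the 100-kb stretches, and ES1 covered 1.04 times the ES3 length, against 2.80 times over the whole lists. The ES1 peaks held 151 reads (128 to 177), the ES2 peaks 106 (86.8 to 128) and the ES3 peaks 51 (38.0 to 67.1). These counts cover unlike parts of the peaks and cannot be compared between lists. Inner interval made up 9804 of the 9883 bp that ES1 covered, but only 3710 of the 9525 bp of ES3. For ES2 it was 8356 of 12300 bp. Density in these intervals was 15.4 reads per kb for ES1, 12.7 for ES2 and 13.7 for ES3. All 3 regions of Prdm14 were in all lists, and 91.9% of the ES1 bases were also covered in ES3, the highest share of the 8 loci.

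At Prdm14 the density of reads differed between ES1 and ES2 in opposite ways at 2 regions. At chr1:13112338-13119648, the widest, 80 ES1 reads in 5140 bp and 76 ES2 reads in 7311 bp gave a density ratio of 1.67 (1.20 to 2.31), ES1 over ES2, per 1000000 reads of each list. At chr1:13092969-13096655, 43 ES1 reads in 3647 bp and 17 ES2 reads in 544 bp gave 0.420 (0.235 to 0.785). In both the list with the shorter peak had the higher density. ES3 had a peak of 3670 bp at the second of these, nearly the extent of ES1, with 27 reads in 2430 bp. In RefSeq annotation Ncoa2 lies near Prdm14 and Clasp1 near Tfcp2l1, close enough for those windows to reach them.

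Zfp42, a zinc finger gene whose silencing marks exit from the naive state, was the only locus with no ES3 peak. It had 3 peaks over 5.45 kb in ES1 and 2 over 3.89 kb in ES2, the smallest covered lengths of the 8 loci in these lists. Its peaks held 48 reads in ES1 (35.4 to 63.6) and 43 in ES2 (31.1 to 57.9). They were narrow, at most 2273 bp in ES1 and 2549 bp in ES2. The ES1 peaks held 15, 14 and 19 reads and the ES2 peaks 24 and 19.

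The absence of a peak is not an absence of signal. The smallest peak of chromosome 8 held 9 reads in each list, so weaker signal would not be listed, and the value of ES3 at Zfp42 is unknown. Among the 100-kb stretches with at least 5 kb of ES1 peaks, 9.93% had no ES3 peak. For 1 of 8 loci that share is near the background, and nothing particular to Zfp42 is read from it. The merged regions were chr8:44388422-44390970 and chr8:44392474-44395611, both in ES1 and ES2, and chr8:44379793-44381445 in ES1 alone. Of the ES1 bases at Zfp42, 36.7% were covered in ES2.

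By covered length 6 of the 8 loci had ES1 above ES2 above ES3, which is also the order of the whole lists, and Klf2 is among them only with its peak at the window's end. The exceptions were Tbx3, with ES3 above ES2, and Prdm14, with ES2 above ES1. Over the 8 windows together ES1 covered 1.30 times the length of ES2 and 2.20 times that of ES3, and ES2 1.70 times that of ES3. The whole lists gave 1.37, 2.80 and 2.05 times. In number of peaks the windows gave 1.24 times for ES1 over ES2, 1.29 times for ES1 over ES3 and 1.04 times for ES2 over ES3, against 1.22, 2.12 and 1.74 times over the whole lists. In reads, as shares of each list's total, they gave 1.18, 2.47 and 2.10 times, against 1.44, 2.58 and 1.79 times. The ratios of covered length were thus all smaller at the loci, and those of peaks and of reads were not all smaller. Reads were counted in inner intervals of 110659 of 191532 bp in ES1, 120182 of 147824 bp in ES2 and 51361 of 86993 bp in ES3. Over the whole lists inner intervals were 69.2%, 73.8% and 79.2% of the covered length, so the read ratios compare unlike parts of the peaks. Per kb of inner interval the windows gave 1.15, 1.15 and 0.997 times, against 1.01, 1.06 and 1.05 times.

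Merging the lists gave 36 regions in the windows, of 31580 in the genome. Regions in all 3 lists numbered 16 (44.4%, 27.9 to 61.9), against a background of 26.2% of all merged regions. Regions of ES1 and ES2 without ES3 numbered 7 (19.4%, 8.19 to 36.0), against 23.8%, and regions of ES1 alone 8 (22.2%, 10.1 to 39.2), against 27.3%. The remaining classes were small, with 2 regions of ES1 and ES3 (background 4.95%), 1 of ES2 and ES3 (2.05%), 1 of ES2 alone (12.8%) and 1 of ES3 alone (2.97%). Of these classes only the share in all lists had an interval that left out its background, by a small margin. It includes the Tbx3 region at the window's start, which is in ES2 and ES3 only through peaks outside the window, and without which 15 of 35 regions were in all lists.

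Counted by list, 33 regions had an ES1 peak (91.7%, 77.5 to 98.2, background 82.2%), 25 an ES2 peak (69.4%, 51.9 to 83.7, background 64.7%) and 20 an ES3 peak (55.6%, 38.1 to 72.1, background 36.2%). The regions of the loci were wide, with a median of 2961.5 bp against 1828 bp, and 27.8% of them were at least 5 kb against 10.8%. Wide regions are in all lists more often anywhere in the genome. Of the 10 regions of at least 5 kb, 10 had an ES3 peak (69.2 to 100%), against 78.2% in the genome. Of the 26 narrower ones, 10 had an ES3 peak (38.5%, 20.2 to 59.4), against 31.1%. In both width classes the genome's share lay inside the interval of the loci. Within these classes no difference from the genome was detectable with these numbers of regions. The width is that of the merged region, which an ES3 peak can itself extend, and widths were not matched within a class.

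**Figure D3:**
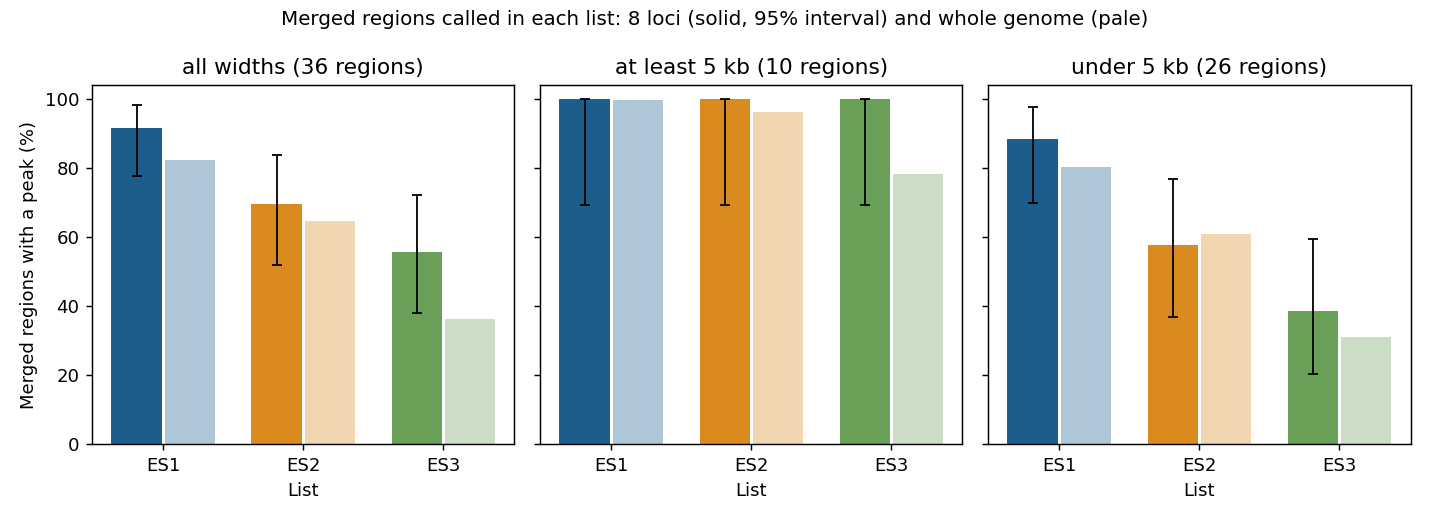
Share in percent of merged regions that hold a peak of ES1, ES2 or ES3, for the 8 loci (solid bars with exact 95% binomial intervals) and the genome (pale bars), for all widths, at least 5 kb and under 5 kb. The ES3 share of the loci is 55.6% against 36.2% over all widths, and within both width classes the genome's bar lies inside the interval.

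The loci split by how many of their regions ES3 held. ES3 had a peak in 2 of 2 regions at Klf5, 3 of 3 at Prdm14, 3 of 4 at Tbx3 and 4 of 5 at Klf2. It had one in 4 of 7 at Esrrb, 2 of 5 at Tfcp2l1, 2 of 7 at Klf4 and 0 of 3 at Zfp42. A widest region of at least 5 kb was in all lists at each locus but Zfp42, which had no region that wide.

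Base by base the lists shared more at the loci than over all peaks of the genome, but not more than wide peaks elsewhere in each direction. Of the ES1 bases at the loci, 63.5% were also covered in ES2 and 42.3% in ES3, against 50.9% and 28.0% for the genome. Only member peaks were counted at the loci, so ES2 and ES3 peaks outside the Tbx3 window that overlapped an ES1 member were left out. Of the ES3 bases, 93.2% were covered in ES1 and 79.3% in ES2, against 78.4% and 67.2%. Peaks of at least 5 kb anywhere in the genome had shares near those of the loci. For ES1 these peaks shared 61.8% of their bases with ES2 and 36.3% with ES3, slightly below the loci. For ES3 they shared 92.7% with ES1, close to the loci, and 83.4% with ES2, above them. Of the ES2 bases, 82.3% at the loci were covered in ES1 and 46.7% in ES3, against 84.8% and 45.0% for wide peaks. ES3 covered few bases that ES1 did not, with 91.7% to 100% of its bases in ES1 at 5 loci, 75.8% at Klf4 and 81.6% at Klf2.

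**Figure D4:**
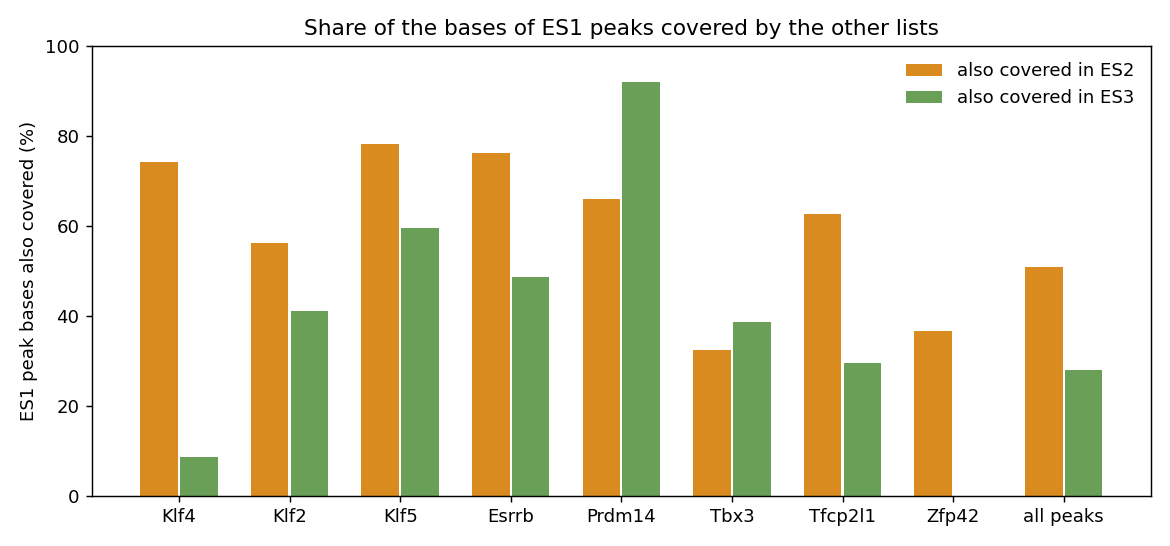
Share in percent of the bases of ES1 peaks that are also covered by ES2 or by ES3 peaks, for each locus and for all peaks of the list, with no error bar because each list is single. The share in ES3 runs from 0 at Zfp42 and 8.68% at Klf4 to 91.9% at Prdm14, and the share in ES2 from 32.5% at Tbx3 to 78.1% at Klf5. Only member peaks count, so both Tbx3 shares leave out peaks outside the window that overlap its first ES1 peak.

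Sharing varied between loci more in ES3 than in ES2. The share of ES1 bases covered in ES2 was 74.1% at Klf4, 56.3% at Klf2, 78.1% at Klf5, 76.2% at Esrrb, 62.7% at Tfcp2l1, 32.5% at Tbx3, 65.9% at Prdm14 and 36.7% at Zfp42. In ES3 it was 8.68% at Klf4, 41.0% at Klf2, 59.6% at Klf5, 48.7% at Esrrb, 29.5% at Tfcp2l1, 38.7% at Tbx3, 91.9% at Prdm14 and 0 at Zfp42. The Tbx3 shares are too low, because only member peaks were counted. They include the 4774-bp ES1 peak at the window's start but not the ES2 peak (958 bp) and ES3 peak (4512 bp) of the same region. Tbx3 and Prdm14 were the loci where ES1 shared more with ES3 than with ES2. They are also the loci where the order of covered lengths differed from that of the lists.

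Densities were compared where the same region was called in 2 lists. Per kb of inner interval and per 1000000 reads of the list, ES1 had 4.82 against 3.82 in ES2 over 23 regions, a ratio of 1.26 (1.17 to 1.37), where the genome gave 1.14. ES1 had 4.99 against 4.18 in ES3 over 18 regions, a ratio of 1.19 (1.07 to 1.33), where the genome gave 1.06. ES2 had 3.77 against 4.16 in ES3 over 17 regions, a ratio of 0.906 (0.816 to 1.01), where the genome gave 0.940. These are ratios of sums over inner intervals that were placed separately in each list.

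In the regions where inner intervals were whole peaks in both lists, the summed ratio was 1.11 (0.952 to 1.31) for ES1 over ES2 at 7 regions. It was 1.11 (0.833 to 1.49) for ES1 over ES3 at 3 and 0.956 (0.717 to 1.29) for ES2 over ES3 at 3. Each interval of a sum includes 1. The 7 regions include those of Prdm14 with ratios of 0.420 (0.235 to 0.785) and 1.67 (1.20 to 2.31), in opposite directions. A summed ratio averages such regions, so it does not show that single regions had like densities. Members were less dense than the typical peak, with a median of 13.1 reads per kb for ES1, 11.7 for ES2 and 10.6 for ES3, against 14.2, 13.7 and 12.5 over the whole lists. The members were also wider, and these medians were not matched for width, so the lower density is not read as particular to the loci. Wide peaks with a low density and narrow peaks with a high one were found at the same locus.

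**Figure D5:**
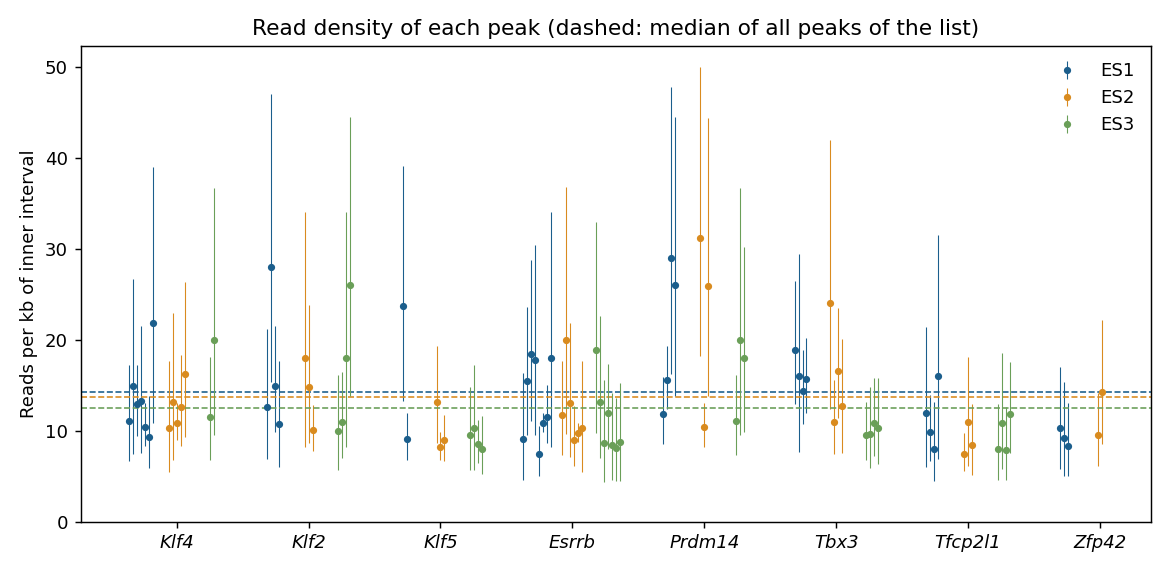
Reads per kb of inner interval for each member peak of ES1, ES2 and ES3, by locus, with exact 95% Poisson intervals; dashed lines are the medians of all peaks of each list (14.2, 13.7 and 12.5). Many peaks lie below their list's line, and the highest values are at short inner intervals of Prdm14, Klf2, Tbx3 and Klf5.

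Peaks reached beyond the genes at part of the loci. In RefSeq annotation of GRCm38.p6 the genes are 5339 bp (Klf4), 2593 bp (Klf2), 14722 bp (Klf5) and 14191 bp (Tbx3) long. If the genes have like lengths in mm9, the ES1 peaks covered at least 12.7 kb outside Klf4, 10.1 kb outside Klf2, 10.6 kb outside Klf5 and 20.9 kb outside Tbx3. The Klf2 value rests on the ES1 peak that ran past the window's end, without which ES1 covered 4.23 kb there. On the same terms ES3 peaks covered at least 3813 bp outside Klf2, 1734 bp outside Klf5 and 477 bp outside Tbx3. At Klf4 they covered less than the gene's length. From its first to its last merged region the Klf4 locus spanned 92.2 kb, 17.3 times the length of the gene, and Klf2 28.0 kb, 10.8 times. Prdm14 spanned 44.0 kb, 3.20 times, and Tbx3 62.5 kb, 4.41 times. The nearest coding genes of Klf4 in that annotation are Rad23b and Actl7b. Defining markers of fibroblasts, of blood progenitors and the other pluripotency genes were not analysed here.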

How the data were processed

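Droplet single-cell chromatin immunoprecipitation sequencing for H3K4me2 and H3K4me3 was deposited with 3 peak lists of the whole series. Reads were aligned with Bowtie to mm9, per the submitters' processing notes. No source used here gives the Bowtie version, the peak caller or any removal of duplicates. Each peak in the deposited lists has a position, an inner interval and the authors' score, with no unit.

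Score times inner length gave, in 100% of peaks, whole multiples (tolerance 0.001) of 1 unit per chromosome and list. The multiple was taken as reads, on the assumption that 1 unit is 1 read. The unit was taken as the chromosome's length over its reads, which gave the totals. The recovery and the merging were checked on simulated data. Shares have exact (Clopper-Pearson) and reads exact Poisson 95% intervals, and ratios of densities exact conditional binomial ones. All cover counting error only. Peaks of the lists that touched or shared at least 1 bp were merged. Coordinates are mm9 and 1-based, other than those of the RefSeq promoters. All 8 genes are described. Regions named are the widest of each gene, the one with the most reads, those in a single list with the most reads, and others chosen after their values were seen. The members and lists were chosen with earlier results of these data known, and the 100-kb stretches and the motifs after the data were seen. Each name has 1 list, so nothing was replicated and nothing was tested. Other pluripotency genes and markers of other cells need an mm9 annotation and are not analysed here. Python 3.11.15, numpy 2.4.6, scipy 1.17.1 and matplotlib 3.10.9 were used.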

Additional observations from a re-analysis of the deposited data

How the results depend on the processing

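Of 78 values recomputed under other choices, 54 stayed within their limit, 23 moved past it and 1 turned round; the limit was 1.5 times for counts, lengths and covered shares, and the 95% interval for the ES3 share and the read ratios. Most moves came from shortening each list to 12391 peaks, which leaves ES3 as it is. By score, 15 ES1 and 12 ES2 peaks were left in the windows, covering 74.5 kb and 35.9 kb with 332 and 203 reads, so ES3 with 87.0 kb covered the most; regions in all lists fell to 6, those of ES1 and ES2 to 0 and those of ES1 alone to 5, and the share with an ES3 peak became 75%. The cause was not tested. By reads, ES1 kept 18 peaks, with 9, 2 and 4 regions in these classes and an ES3 share of 72.4%, and the order of covered lengths held (133.9 kb in ES1, 128.9 kb in ES2 and 87.0 kb in ES3). With at least 15 reads per peak, ES3 had 15 peaks and 8 regions were in all lists. ES1 stood above ES2 and ES2 above ES3 at 6 loci by covered length, at 4 by reads and at 2 by number of peaks. At regions in both lists the ratio of reads, as shares of each list's total, was 1.07 for ES1 over ES2, 1.96 for ES1 over ES3 and 1.98 for ES2 over ES3. Per kb of inner interval it was 1.26, 1.19 and 0.906, and by mean score 1.21, 1.39 and 1.06, so the direction of ES2 over ES3 turned; the lengths of the inner intervals differ between lists by construction. Gene lists that need an mm9 annotation were not run. No paired analysis was possible because each list is single and carries no replicate number. Depth limits the narrow peaks, the weakest of which rest on 8 or 9 reads.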

Other observations

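Peaks in the 20 kb on each side of the windows, which the widened windows above include, were also counted by locus. At Klf4, Esrrb and Tfcp2l1 no list had a peak there, so the peaks of these loci ended inside their windows. At Klf5 the sides held 3 peaks over 9.66 kb in ES1, 4 over 11.1 kb in ES2 and 2 over 3.85 kb in ES3. At Tbx3 they held 3 peaks over 12.1 kb in ES1, 3 over 8.97 kb in ES2 and 1 over 4.51 kb in ES3. At Prdm14 each list had 2 peaks in the sides. At Klf2 ES1 and ES2 had 2 peaks each and ES3 none, and at Zfp42 ES1 had 1 and the other lists none.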
